A study of Homo sapiens with 61 samples.

Results

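TRAPPC9 and 4 genes of the same end of the long arm of chromosome 8 (KCNK9, COL22A1, TSNARE1 and GML) were followed through chromatin immunoprecipitation sequencing (ChIP-seq) peak lists of U2OS cells, an osteosarcoma line. They are 5 of 19970 protein-coding genes, taken as a fixed list, and 103 further protein-coding genes start between COL22A1 and the end of the chromosome. The list was drawn up with earlier results of these data in view, above all the length of each gene body under H3K4me3 peaks in each group. The H3K4me3 values of the 5 genes are therefore a description and carry no test. Whether XPC values also had a part in the choice is not known, so the XPC values are read as a description too. The question of the study was how the histone methyltransferase ASH1L shapes H3K4me3 and the binding of XPC after ultraviolet (UV) damage.

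The cells were ASH1L–/–, made by CRISPR/Cas9 deletion followed by isolation of colonies, or wild type (WT). Both were left unirradiated or given 20 J/m2 of UV-C and collected at 1 h or 3 h. Each of the 6 groups had 3 H3K4me3 libraries and 3 XPC libraries, except unirradiated WT cells, which had 4 for XPC. By their labels, libraries that share a group are biological replicates. H3K4me3 peaks had been called against input, and XPC peaks against the XPC immunoprecipitate of XPC–/– cells. Those controls were pooled, so the libraries of a group share 1 control. The XPC–/– control was that of the same time, so for XPC the WT and ASH1L–/– libraries of a time share it. A UV contrast of XPC therefore also compares different controls.

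H3K4me3 is the trimethyl mark on lysine 4 of histone H3 that sits at the start of active genes, and it is usually scarce inside long genes. XPC is the damage sensor of global-genome nucleotide excision repair, the pathway that removes UV lesions from the whole genome. TRAPPC9 encodes a subunit of the TRAPP II complex, which tethers transport vesicles and has also been tied to NF-kB signalling. An imprinted noncoding gene, PEG13, lies inside TRAPPC9. KCNK9 encodes TASK-3, a potassium channel of the two-pore-domain family, and is itself imprinted. COL22A1 encodes a FACIT collagen, TSNARE1 a protein with a t-SNARE domain, and GML a GPI-anchored protein of the LY6 family.

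All positions are on chromosome 8 of hg38 (GENCODE 44). From the centromere side, COL22A1 spans 138588235 to 138914041, KCNK9 139600838 to 139704109, TRAPPC9 139727725 to 140458579 and TSNARE1 142212080 to 142403182, each on the minus strand. GML spans 142834247 to 142916506 on the plus strand. A gene body was taken as the gene without its first 2 kb and without promoters of other protein-coding genes, 728 kb for TRAPPC9, 323.8 kb for COL22A1, 189.1 kb for TSNARE1, 100.3 kb for KCNK9 and 75.0 kb for GML. PEG13 (140092781 to 140100553) lies in intron 17 of TRAPPC9, and its peaks, promoter included, count towards the TRAPPC9 body. GML overlaps CYP11B1 (142872356 to 142879846) and CYP11B2 (142910559 to 142917843), genes for adrenal steroid enzymes, and peaks there cannot be assigned to 1 gene.

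The H3K4me3 lists held 72984 to 142688 peaks over 70.1 to 132 Mb. Of the 19 XPC lists, 17 held exactly 500000 peaks. The other two were 1 ASH1L–/– library at 3 h with 326438 peaks and 1 WT library at 1 h with 360980. The peak lists hold no read counts, and the sequencing depths that the study states were not used here. Among promoters of the mesenchymal and osteoblast lineage, RUNX2, COL1A1, PRRX1 and VIM carried 1.77 to 3.49 kb of H3K4me3 in unirradiated WT cells, and COL1A2 and TWIST1 carried none. Of 9 markers of blood, liver, epithelium and brain, 6 were at 0, APOA1 and KRT5 were at 0.288 and 0.073 kb, and the neuronal gene RBFOX3 had 1.04 kb. The ASH1L promoter was covered for 2.81 ± 0.0693 kb in ASH1L–/– and 2.79 ± 0.0598 kb in WT cells (SD, n = 9 libraries each), which does not check the deletion.

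Within the TRAPPC9 body, H3K4me3 covered more DNA at each later time in WT cells and less after UV in ASH1L–/– cells. In ASH1L–/– cells the covered length was 78.7, 109.7 and 100.9 kb without UV. It was 36.8, 67.1 and 50.7 kb at 1 h and 63.4, 32.04 and 38.6 kb at 3 h in the same cells. In WT cells it was 69.1, 76.3 and 72.6 kb without UV, 166.6, 142.5 and 128.5 kb at 1 h and 258.4, 198.5 and 193.5 kb at 3 h. The 3 WT times did not overlap one another, every irradiated ASH1L–/– library lay below every unirradiated ASH1L–/– library, and the irradiated libraries of the genotypes stood apart. The means were 96.4 ± 15.98, 51.5 ± 15.2 and 44.7 ± 16.5 kb in ASH1L–/– cells at no UV, 1 h and 3 h, against 72.7 ± 3.58, 145.9 ± 19.3 and 216.8 ± 36.2 kb in WT cells (SD, n = 3). At 3 h in WT cells this was 29.8% of the gene body.

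**Figure D1:**
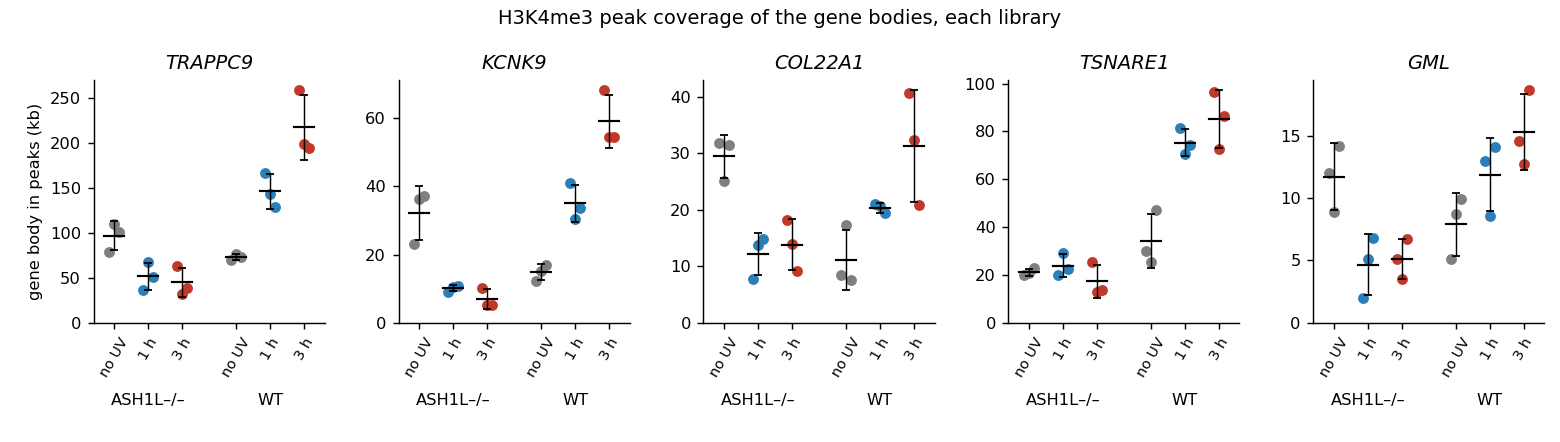
Each point is 1 library and gives the length of the gene body under H3K4me3 peaks in kb, with the group mean (bar) and SD (whiskers, n = 3), for ASH1L–/– and WT cells at no UV, 1 h and 3 h. In TRAPPC9 the WT points climb with time to between 193.5 and 258.4 kb at 3 h, while the irradiated ASH1L–/– points stay between 32.04 and 67.1 kb.

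In ASH1L–/– cells TRAPPC9 had fewer peaks after UV, while in WT cells it had somewhat more and much wider ones. ASH1L–/– cells had a mean of 173, 97 and 80.3 peaks at no UV, 1 h and 3 h, with a typical width of 414, 391 and 388 bp (mean of the library medians). WT cells had 137.3, 176.7 and 177.7 peaks of 378, 502 and 653 bp. Most peaks were weak. The median fold enrichment over the local control was 2.32 to 2.82 in ASH1L–/– and 2.38 to 3.37 in WT libraries, and the highest single value was 16.5. Peaks of at least 5-fold enrichment covered 8.31 ± 3.46, 4.31 ± 1.17 and 1.88 ± 1.33 kb in ASH1L–/– cells at no UV, 1 h and 3 h. In WT cells they covered 3.94 ± 3.55, 19.7 ± 2.24 and 74.2 ± 26.6 kb (SD, n = 3).

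The mark was not spread evenly along TRAPPC9. In 20 kb steps from the start site, a stretch of 12 steps (240 kb) at the 5′ side was nearly bare in every group, and the split was chosen after the steps had been seen. It held 2.57 ± 1.08, 2.66 ± 1.01 and 1.62 ± 1.22 kb in ASH1L–/– cells at no UV, 1 h and 3 h, against 2.05 ± 1.62, 3.83 ± 0.932 and 5.47 ± 1.00 kb in WT cells. The other 25 steps (488 kb, the last one shorter) held 93.8 ± 16.8, 48.9 ± 15.6 and 43.05 ± 16.98 kb in ASH1L–/– cells and 70.6 ± 4.11, 142 ± 20.0 and 211 ± 36.1 kb in WT cells. That is 19.2, 10.0 and 8.82% of the stretch in ASH1L–/– cells and 14.5, 29.1 and 43.3% in WT cells. Nearly all covered bases therefore lay in the 3′ part of the gene in both genotypes. The number of steps with a peak in at least 2 libraries was 30, 29 and 25 of 37 in ASH1L–/– cells and 27, 29 and 29 in WT cells. Step 31 was the fullest in WT cells at 3 h and in unirradiated ASH1L–/– cells. It held 9.49, 2.61 and 1.68 kb in ASH1L–/– cells and 5.35, 13.03 and 18.8 kb of 20 kb in WT cells. In the other groups another step was the fullest. It was step 36 in WT cells without UV (6.70 kb) and at 1 h (13.2 kb). In ASH1L–/– cells it was step 30 at 1 h (5.22 kb) and step 14 at 3 h (5.81 kb).

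**Figure D2:**
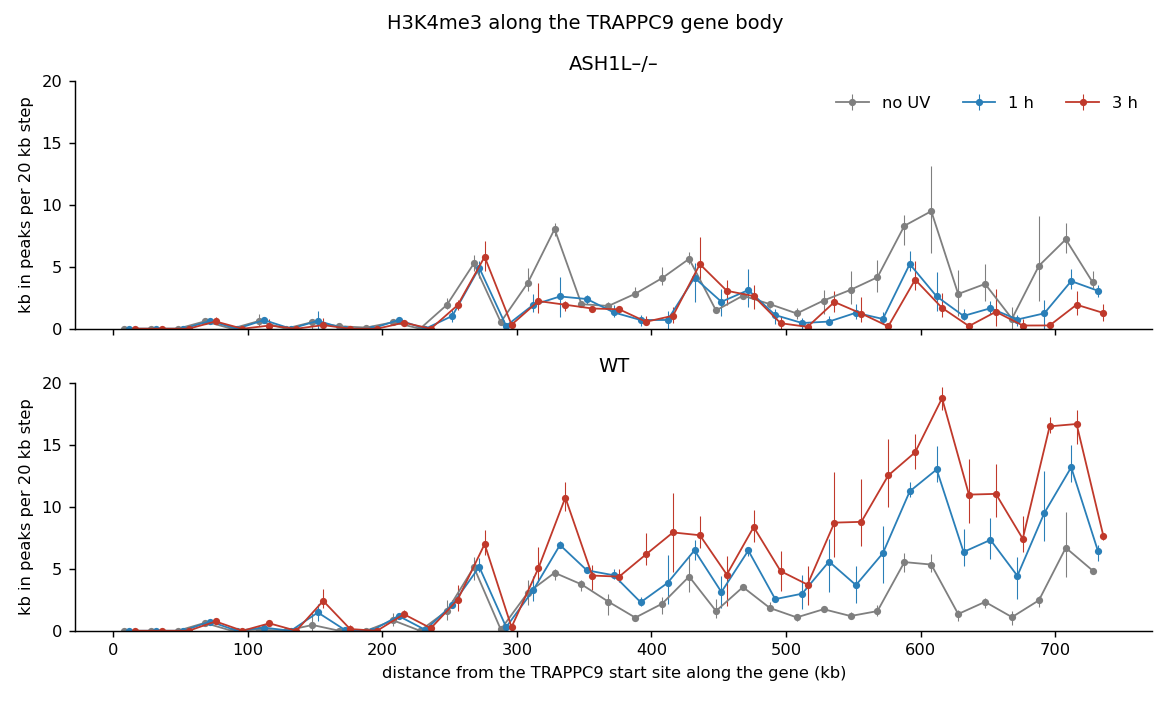
Length under H3K4me3 peaks (kb) in each 20 kb step of the TRAPPC9 gene body against distance from its start site (kb), with ASH1L–/– cells above and WT cells below; points are group means, vertical lines run from the lowest to the highest of 3 libraries, and the last step is shorter than 20 kb. All lines stay low over the first 240 kb, and beyond it the WT 3 h line is the highest in most steps and peaks at 18.8 kb.

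Merging the 18 lists gave 170 separate regions in the TRAPPC9 body, of which 22 held a peak in all 18 lists and 49 in only 1. The longest of the 22 lay in intron 21 (139836282 to 139866820, 30539 bp, centred 606.2 kb from the start site). Its covered length was 15739 ± 4405, 6936 ± 2743 and 5199 ± 2202 bp in ASH1L–/– cells at no UV, 1 h and 3 h, against 10154 ± 477, 21887 ± 2272 and 29379 ± 961 bp in WT cells. Its highest fold enrichment averaged 5.84, 3.20 and 3.35 in ASH1L–/– and 3.97, 6.64 and 15.6 in WT cells. A region over the last exons, 22 and 23 (139726588 to 139747719), was also longest in WT cells at 3 h and shortest in ASH1L–/– cells at 3 h, with 8394 ± 1711, 5384 ± 257 and 2256 ± 1336 bp in ASH1L–/– and 9602 ± 1736, 15773 ± 1324 and 19671 ± 1069 bp in WT cells.

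Not every constant TRAPPC9 region followed that order. One region in intron 17 (140175631 to 140177178, 1548 bp) had 1140 ± 218, 1017 ± 149 and 1163 ± 96.7 bp in ASH1L–/– cells and 1113 ± 90.1, 893 ± 223 and 772 ± 269 bp in WT cells. Its fold enrichment averaged 6.11, 8.47 and 7.61 in ASH1L–/– and 4.87, 5.95 and 4.53 in WT cells, so the knockout means were the higher ones at all 3 times.

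At PEG13 the genotypes differed before UV as well as after it. Of its 7.77 kb, 1.60, 2.15 and 1.91 kb were covered in ASH1L–/– cells without UV, 2.45, 3.01 and 2.002 kb at 1 h, and 1.59, 1.64 and 1.66 kb at 3 h. In WT cells it was 5.49, 5.25 and 3.19 kb without UV, 6.35, 6.74 and 6.62 kb at 1 h, and 6.52, 6.21 and 4.38 kb at 3 h. All 9 ASH1L–/– libraries lay below all 9 WT libraries. Within ASH1L–/– cells the 1 h and 3 h libraries did not overlap, and within WT cells the unirradiated and 1 h libraries did not. The merged region over PEG13 (140093818 to 140100662) had a mean highest fold enrichment of 4.59, 7.04 and 4.39 in ASH1L–/– and 5.80, 9.41 and 10.98 in WT cells.

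KCNK9, the neighbour just past the 3′ end of TRAPPC9, had the largest covered share of its body of the 5 genes in WT cells at 3 h and in unirradiated ASH1L–/– cells, while TSNARE1 had the largest share in the other 4 groups. In ASH1L–/– cells 22.98, 36.3 and 37.3 kb were covered without UV, 9.10, 10.5 and 10.9 kb at 1 h and 10.2, 5.30 and 5.16 kb at 3 h. In WT cells the lengths were 12.2, 15.2 and 17.01 kb without UV, 41.1, 30.4 and 33.7 kb at 1 h and 68.2, 54.6 and 54.7 kb at 3 h. The unirradiated ASH1L–/– libraries lay above the unirradiated WT libraries, and the irradiated ones lay below, with no overlap in either case. The share of the body was 32.1, 10.1 and 6.86% in ASH1L–/– cells against 14.8, 35.0 and 59.0% in WT cells. Peaks of at least 5-fold enrichment covered 2.36 ± 1.46, 0.814 ± 0.109 and 0 kb in ASH1L–/– cells and 0, 1.31 ± 1.71 and 25.4 ± 9.71 kb in WT cells.

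Inside KCNK9, 4 of 28 merged regions held a peak in all 18 lists. The one in intron 1 nearest the start site (139690283 to 139696833) had 5266 ± 90.1, 3637 ± 593 and 2406 ± 434 bp in ASH1L–/– cells and 4258 ± 439, 5645 ± 228 and 6282 ± 242 bp in WT cells. The one over exon 2, the last exon (139608916 to 139617218), had 5630 ± 618, 1399 ± 305 and 355 ± 132 bp in ASH1L–/– cells and 1997 ± 241, 3562 ± 488 and 6680 ± 728 bp in WT cells. The longest one, also in intron 1 (139673250 to 139685036), had 6226 ± 1562, 2653 ± 614 and 1256 ± 761 bp in ASH1L–/– cells and 4348 ± 1234, 8560 ± 710 and 10716 ± 800 bp in WT cells, the widest range of the 4. A short region of intron 1 (139630634 to 139631675) stayed between 459 and 889 bp in all group means.

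COL22A1, the collagen gene on the centromere side, was covered for 31.8, 25.1 and 31.4 kb in ASH1L–/– cells without UV, 7.80, 13.8 and 14.8 kb at 1 h, and 18.2, 14.0 and 9.12 kb at 3 h. In WT cells it was covered for 8.39, 17.2 and 7.61 kb without UV, 20.9, 20.7 and 19.3 kb at 1 h, and 40.7, 32.3 and 20.8 kb at 3 h. Without UV the ASH1L–/– libraries were the higher ones, and after UV the WT libraries were, without overlap at either time. The WT libraries at 3 h reached down to the values at 1 h. The means were 29.4 ± 3.79, 12.1 ± 3.79 and 13.8 ± 4.52 kb in ASH1L–/– cells and 11.1 ± 5.34, 20.3 ± 0.866 and 31.3 ± 9.98 kb in WT cells. No more than 9.66% of the body was covered in any group mean. Of 93 merged regions 3 held a peak in all 18 lists, and the strongest, in intron 22 (138746619 to 138749310), had a mean fold enrichment of 6.27, 5.10 and 4.43 in ASH1L–/– and 3.87, 6.30 and 8.77 in WT cells.

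TSNARE1 differed from the other 4 genes in its unirradiated cells, where the ASH1L–/– libraries were the lower ones. They held 19.8, 20.6 and 22.7 kb without UV, 20.1, 29.2 and 22.4 kb at 1 h and 25.3, 12.9 and 13.5 kb at 3 h, so the 3 ASH1L–/– times overlapped. The WT libraries held 29.9, 25.5 and 47.2 kb without UV, 81.4, 70.4 and 74.2 kb at 1 h and 96.7, 72.6 and 86.6 kb at 3 h. In WT cells both irradiated times lay above the unirradiated libraries and overlapped each other. Steps marked in at least 2 libraries numbered 7 of 10 at each time in ASH1L–/– cells and 8, 10 and 10 in WT cells. Step 5 (exons 7 to 9) reached 3.96, 7.89 and 5.23 kb in ASH1L–/– and 8.68, 17.4 and 18.4 kb in WT cells. In step 3 the ASH1L–/– means were at most 0.08 kb, against 1.36, 7.16 and 9.31 kb in WT cells.

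GML, the shortest body, was covered for 12.05, 8.88 and 14.2 kb in ASH1L–/– cells without UV, 1.997, 5.12 and 6.81 kb at 1 h, and 5.14, 3.51 and 6.69 kb at 3 h. In WT cells it was covered for 5.08, 8.76 and 9.92 kb without UV, 12.99, 8.56 and 14.2 kb at 1 h, and 14.6, 12.7 and 18.7 kb at 3 h. The irradiated groups of the genotypes did not overlap, and the unirradiated ones did. Of 24 merged regions 3 held a peak in all 18 lists, all of them outside the transcript that set the GML start site. The one shared with CYP11B1 (142869373 to 142874579) had 2834 ± 1254, 781 ± 369 and 450 ± 110 bp in ASH1L–/– and 1554 ± 205, 3157 ± 624 and 3820 ± 745 bp in WT cells.

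The same contrasts were computed with limma over 12303 gene bodies with a covered base in at least 3 libraries, with 1 h and 3 h averaged as irradiated. All 5 genes passed that filter. For irradiated minus unirradiated WT cells the change was 108.7 ± 17.2 kb in TRAPPC9, the largest of all gene bodies, 46.1 ± 6.03 kb in TSNARE1, 32.3 ± 3.82 kb in KCNK9, 14.7 ± 3.72 kb in COL22A1 and 5.71 ± 1.76 kb in GML (SE). The median change of all gene bodies was 0.434 kb. Of the gene bodies tested, 17.8% were past the adjusted p threshold of 0.05 (called), and the 5 genes were among them. Because the genes were chosen on this contrast, nothing is read from that count.

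For irradiated minus unirradiated ASH1L–/– cells the change was −48.3 ± 17.2 kb in TRAPPC9, −23.7 ± 3.82 kb in KCNK9, −16.5 ± 3.72 kb in COL22A1, −6.84 ± 1.76 kb in GML and −0.46 ± 6.03 kb in TSNARE1 (SE). Of all gene bodies 8.34% were called, 7.4% higher and 0.943% lower. KCNK9, COL22A1 and GML were past the threshold, and TRAPPC9, with the most negative change of all gene bodies, was not. Nothing is read from that count, because the genes were chosen with these values known. Among irradiated cells, ASH1L–/– minus WT was −133 ± 14.0 kb in TRAPPC9, −59.7 ± 4.92 kb in TSNARE1, −38.6 ± 3.12 kb in KCNK9, −12.8 ± 3.03 kb in COL22A1 and −8.75 ± 1.44 kb in GML (background 26.9% called). The UV change in ASH1L–/– minus that in WT cells was −157 ± 24.28 kb in TRAPPC9, −56.0 ± 5.41 kb in KCNK9, −46.6 ± 8.53 kb in TSNARE1, −31.2 ± 5.25 kb in COL22A1 and −12.6 ± 2.495 kb in GML (background 3.71% called). All 5 genes were past the threshold in both of these contrasts, and nothing is read from these counts for the same reason.

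Some of these calls rested on single libraries or on weak peaks. GML lost the call for the WT change without WT replicate 1 or 2 of the unirradiated cells, or replicate 1 or 3 of either 1 h or 3 h, and its change ran from 4.29 to 6.71 kb when a library was left out. COL22A1 was not past it without unirradiated WT replicate 1 (13.4 kb). In ASH1L–/– cells both genes lost the call without unirradiated replicate 1 or replicate 3, at −15.3 and −15.5 kb for COL22A1 and −6.68 and −5.59 kb for GML. TRAPPC9 gained that call without WT 3 h replicate 1, with its change of −48.3 kb the same. GML lost the call for the difference of the changes without unirradiated WT replicate 1 (−11.1 kb). With peaks of at least 5-fold enrichment only, the ASH1L–/– change was −1.96 kb in KCNK9, −1.44 kb in COL22A1 and −1.40 kb in GML, and the difference of the changes was −15.3, −7.27 and −4.13 kb in the same genes, none past the threshold. Scaled to equal coverage in every library, the WT change of COL22A1 (8.51 kb) and GML (2.095 kb) was not past it either, and the ASH1L–/– change of TRAPPC9 was (−66.1 kb).

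The promoters of the 5 genes did not vary as their bodies did. Within 2 kb on each side of the start site, TRAPPC9 had 1.74 ± 0.132, 2.03 ± 0.127 and 1.95 ± 0.0577 kb in ASH1L–/– cells at no UV, 1 h and 3 h, against 1.77 ± 0.130, 2.095 ± 0.0918 and 1.94 ± 0.0690 kb in WT cells (SD, n = 3). TSNARE1 had 1.88, 2.22 and 2.07 kb in ASH1L–/– against 1.88, 2.25 and 2.13 kb in WT cells, and KCNK9 0.783, 1.02 and 0.810 kb in ASH1L–/– against 0.793, 1.03 and 0.878 kb in WT cells. For these 3 genes the genotype means at each time differed by less than the larger SD of the pair. Their 1 h libraries lay above the unirradiated ones in both genotypes, without overlap. COL22A1 had 1.61, 1.68 and 2.21 kb in ASH1L–/– and 2.42, 2.74 and 2.58 kb in WT cells, with the genotypes apart at 1 h. The GML promoter was covered in none of the 18 libraries.

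High coverage was also found between the 5 genes, in patches. From COL22A1 to the chromosome end, H3K4me3 peaks covered 12.1 ± 1.09, 9.81 ± 0.957 and 9.05 ± 1.35% in ASH1L–/– cells at no UV, 1 h and 3 h, against 10.2 ± 1.89, 16.4 ± 2.03 and 20.7 ± 3.15% in WT cells. The rest of chromosome 8 was at 3.05, 3.14 and 3.32% in ASH1L–/– and 2.84, 3.51 and 3.90% in WT cells. The 684.8 kb between COL22A1 and KCNK9 had 23.6, 14.7 and 16.7% in ASH1L–/– and 17.9, 22.6 and 25.3% in WT cells. The fullest 100 kb bin lay there, next to KCNK9, with 64.4, 48.4 and 51.7% in ASH1L–/– and 59.6, 72.4 and 76.9% in WT cells. Between TRAPPC9 and TSNARE1 the values were 7.62, 4.95 and 4.10% in ASH1L–/– and 5.85, 11.7 and 17.99% in WT cells. There the coverage was concentrated near 1380 kb from the TRAPPC9 start site, with 31.7, 16.7 and 15.4% in ASH1L–/– and 18.5, 36.6 and 51.0% in WT cells.

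**Figure D3:**
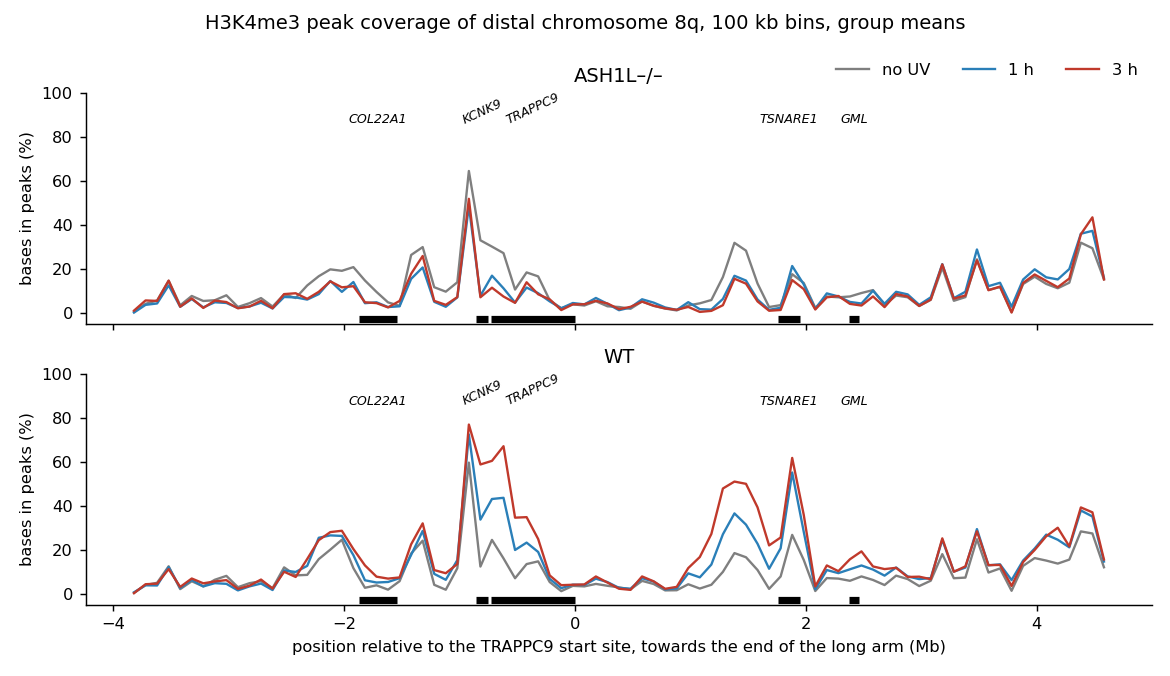
Share of bases under H3K4me3 peaks (%) in 100 kb bins against position relative to the TRAPPC9 start site (Mb, towards the end of the long arm), group means of 3 libraries, with ASH1L–/– cells above, WT cells below and the 5 gene spans as black bars. The WT 3 h line stands above the others over KCNK9, the 3′ part of TRAPPC9, TSNARE1 and a gene-poor stretch near 1380 kb, while in ASH1L–/– cells the unirradiated line is the highest over KCNK9 and TRAPPC9.

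Of the 103 other genes of this segment, 75 had a body window and 47 passed the filter. In WT cells 19 of 47 were higher after UV and none was lower (17.7% and 0.0813% of all gene bodies), with a median change of 0.638 kb against 0.434 kb over all gene bodies. The largest were ARHGAP39 at 22.2 ± 3.63 kb (adjusted p = 0.00198), MROH5 at 7.66 ± 1.58 kb (adjusted p = 0.00692) and AGO2, the slicing Argonaute, at 2.41 ± 0.470 kb (adjusted p = 0.00513). In ASH1L–/– cells 1 rose, the zinc-finger gene ZNF16, by 4.64 ± 1.12 kb, and 1 fell, C8orf33, by 1.74 ± 0.289 kb (7.4% and 0.943% of all gene bodies). The UV changes differed between genotypes in MROH5 (−8.95 ± 2.24 kb, adjusted p = 0.0397), CYP11B1 (−2.04 ± 0.433 kb, adjusted p = 0.0184) and C8orf33 (−1.98 ± 0.409 kb, adjusted p = 0.0164), all lower in ASH1L–/– cells, as were 3.38% of all gene bodies. Among irradiated cells 1 gene was higher in ASH1L–/– than in WT cells (ZNF16, by 3.77 ± 0.918 kb) and 19 were lower, ARHGAP39 most (−23.5 ± 2.97 kb), against 11.3% higher and 15.7% lower over all gene bodies. These genes lie among the listed ones and share their libraries and controls. CYP11B1 also shares its peaks with GML.

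The level of the control differed between the groups, and in TRAPPC9 and KCNK9 it was lowest in WT cells at 3 h and in unirradiated ASH1L–/– cells. At the summit of each peak, the pileup of the immunoprecipitate and the control mean that the peak caller had used were solved from the deposited fold enrichment and −log10 p. Both were divided by their median over all autosomal regions of the same kind. The comparison was limited to regions outside promoters with a peak in all 18 libraries (16437 of 261068), a choice made after the data had been seen. In the 22 such regions of TRAPPC9, the control stood at 1.43 ± 0.0397, 1.78 ± 0.0569 and 1.69 ± 0.0482 in ASH1L–/– cells at no UV, 1 h and 3 h, against 1.75 ± 0.124, 1.67 ± 0.0154 and 1.42 ± 0.0795 in WT cells. The pileup stood at 1.19, 1.06 and 1.02 in ASH1L–/– and 1.18, 1.12 and 1.15 in WT cells.

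In the 4 regions of KCNK9 the control stood at 1.34, 1.86 and 1.96 in ASH1L–/– and 1.78, 1.66 and 1.22 in WT cells. The pileup there stood at 1.27, 1.15 and 1.05 in ASH1L–/– and 1.36, 1.28 and 1.21 in WT cells. The 3 groups with the most KCNK9 coverage (WT 3 h, WT 1 h and unirradiated ASH1L–/–) had the 3 lowest control levels. The control spanned a wider range between groups than the pileup in both genes. In COL22A1 the control stood at 1.11, 1.37 and 1.51 in ASH1L–/– and 1.55, 1.34 and 1.18 in WT cells, over 3 regions. In GML it stood at 1.01, 1.34 and 1.82 in ASH1L–/– and 1.62, 1.65 and 1.01 in WT cells, also over 3. TSNARE1 had 2.198, 2.13 and 2.57 in ASH1L–/– and 1.78, 2.07 and 1.87 in WT cells over 5 regions, so in WT cells its control was lowest where its coverage was lowest. The pileup in COL22A1 stood at 1.19, 1.16 and 1.41 in ASH1L–/– and 1.45, 1.37 and 1.53 in WT cells. For GML it was 1.105, 0.690 and 0.863 in ASH1L–/– and 0.915, 0.870 and 0.893 in WT cells. For TSNARE1 it was 1.42, 1.49 and 1.66 in ASH1L–/– and 1.52, 1.745 and 1.66 in WT cells.

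Over the 130 to 135 such regions per library from COL22A1 to the chromosome end the control was at 1.74, 1.92 and 1.92 in ASH1L–/– and 1.86, 1.85 and 1.64 in WT cells. On the rest of chromosome 8 it was between 0.912 and 1.06 in all 6 groups. A higher control lowers the fold enrichment of the same pileup by construction. Because the inputs were pooled within each group these are 6 controls and not 18, and the caller's control has a genome-wide floor. The part of the control level in the H3K4me3 differences of the 5 genes was not tested. The control level behind the XPC coverage was not examined.

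**Figure D4:**
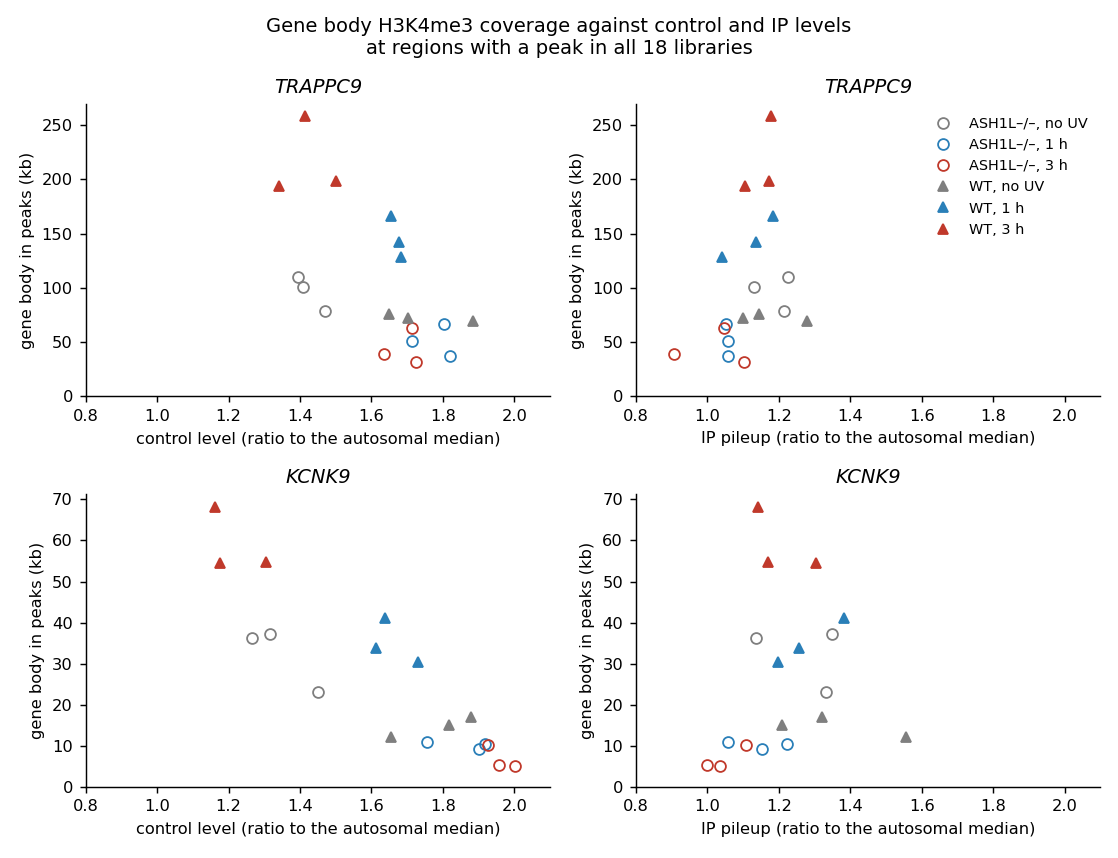
Length of the gene body under H3K4me3 peaks (kb) in each library against the control level (left) and the immunoprecipitate pileup (right), both as ratios to the autosomal median at regions with a peak in all 18 libraries, for TRAPPC9 and KCNK9; circles are ASH1L–/– and triangles WT libraries, coloured by time. Libraries of WT cells at 3 h and of unirradiated ASH1L–/– cells lie at control ratios of 1.16 to 1.5, and the pileup ratios of the groups overlap more than their control ratios.

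XPC covered a large share of all 5 bodies, most of all at 3 h, in peaks that were weak. In TRAPPC9, XPC peaks covered 26.7, 20.0 and 15.4% of the body in unirradiated ASH1L–/– cells, 25.1, 30.6 and 18.8% at 1 h, and 32.5, 65.8 and 51.8% at 3 h. In WT cells they covered 37.7, 27.8, 46.3 and 15.4% without UV, 38.6, 29.9 and 37.4% at 1 h, and 51.0, 69.1 and 54.1% at 3 h. The 3 h libraries lay above the others within each genotype, and the genotypes overlapped at all 3 times. The means were 20.7, 24.8 and 50.02% in ASH1L–/– and 31.8, 35.3 and 58.1% in WT cells. The median fold enrichment of these peaks was only 1.496 to 1.99.

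The other members had similar XPC shares. In ASH1L–/– cells KCNK9 had 19.03 ± 7.72, 25.1 ± 10.8 and 50.2 ± 22.0% at no UV, 1 h and 3 h, and in WT cells 35.9 ± 19.5, 40.1 ± 17.5 and 64.0 ± 15.7%. COL22A1 had 17.6, 21.1 and 45.3% in ASH1L–/– and 32.1, 30.0 and 54.2% in WT cells. TSNARE1 had 15.3, 29.1 and 50.5% in ASH1L–/– and 33.1, 48.3 and 65.0% in WT cells. At 3 h these means of the 4 genes differed by less than the SD within most groups. GML was lowest at 3 h, with 21.4, 22.9 and 39.5% in ASH1L–/– and 26.8, 23.9 and 43.2% in WT cells. The 3 h ASH1L–/– library with the shortest list was the lowest of its group for each of the 5 genes.

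**Figure D5:**
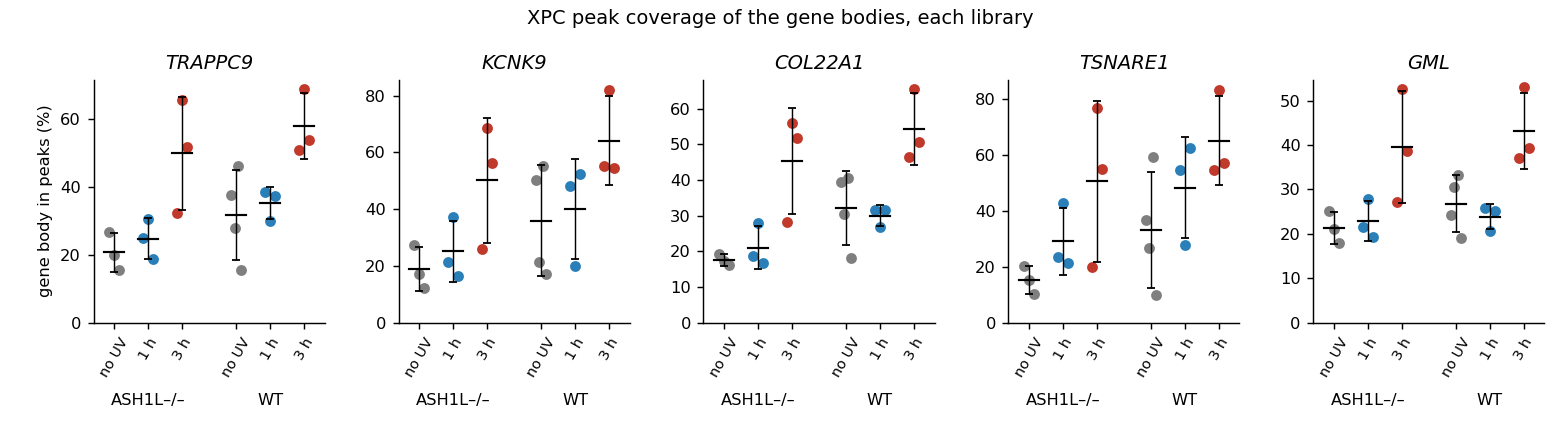
Share of each gene body under XPC peaks (%) in each library, with the group mean (bar) and SD (whiskers, n = 3, or 4 for unirradiated WT cells), for ASH1L–/– and WT cells at no UV, 1 h and 3 h. In TRAPPC9 the 3 h means are 50.02% in ASH1L–/– and 58.1% in WT cells, and the libraries of a group spread widely.

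None of the 5 genes passed limma's test over 16929 gene bodies in any XPC contrast. Because XPC values may have had a part in the choice of the genes, the estimates, ranks and adjusted p-values below are a description. In WT cells the UV change was 108 ± 59.7 kb in TRAPPC9 (adjusted p = 0.509), and those of the others ran from 5.06 kb in GML to 44.5 kb in TSNARE1 (background 0.744% called). In ASH1L–/– cells it was 122 ± 65.4 kb in TRAPPC9 (adjusted p = 1) and 7.39 to 50.5 kb in the others (background 0.00591% called). TRAPPC9 had the largest estimate of all gene bodies in both contrasts, on the longest body of the 5. Averaged over the 3 times, ASH1L–/– minus WT was −71.8 ± 42.7 kb in TRAPPC9 (adjusted p = 0.509), −35.0 ± 16.6 kb in COL22A1 (0.307), −32.5 ± 15.3 kb in TSNARE1 (0.304), −15.3 ± 7.56 kb in KCNK9 (0.343) and −2.52 ± 3.42 kb in GML (0.932), against a background of 7.15% called. Without the 2 shorter lists this difference was −48.0 kb in TRAPPC9, −18.3 kb in TSNARE1, −9.17 kb in KCNK9 and −0.847 kb in GML, none of them past the threshold.

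The UV change of XPC in ASH1L–/– minus that in WT cells was 13.5 ± 88.5 kb in TRAPPC9 and 1.87 to 18.1 kb in the others (adjusted p = 0.999921 for each). No gene body was called by limma in this contrast (0%), and 477 had an unadjusted p under 0.05. The SE of 88.5 kb for TRAPPC9 leaves room for large differences in either direction. Most XPC peaks here were below the −log10 p of 2 that the study states as its threshold. With only peaks of at least that strength, TRAPPC9 kept 9.40 ± 10.0, 2.79 ± 3.35 and 10.9 ± 8.69 kb in ASH1L–/– cells and 27.6 ± 43.7, 9.40 ± 8.15 and 24.0 ± 25.3 kb in WT cells, where unirradiated replicate 1 held 92.9 kb and the other 3 unirradiated libraries 3.42 to 10.1 kb. List size at that strength varied widely. Unirradiated WT replicate 1 held 87199 such peaks and the other 3 libraries 25631 to 36135. At 1 h the lists held 4957, 26584 and 956 in ASH1L–/– and 590, 32086 and 7444 in WT cells. Unirradiated ASH1L–/– lists held 27463 to 52260. The UV change was negative in all 5 genes in both genotypes and past the threshold in none. In ASH1L–/– cells the part of the short 1 h lists in this change was not tested. In WT cells the sign of the change rested on unirradiated replicate 1. The WT change was −10.9 kb with it and 10.9 kb without it in TRAPPC9, and without it the other genes had 1.55 kb (KCNK9), 6.15 kb (COL22A1), 4.05 kb (TSNARE1) and 0.552 kb (GML), a difference of means with no test, computed after the data had been seen.

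XPC did not share the bare stretch of H3K4me3 in TRAPPC9. Its first 240 kb were covered for 22.1, 24.2 and 48.5% in ASH1L–/– and 29.0, 28.9 and 54.9% in WT cells at no UV, 1 h and 3 h. The other 488 kb had 20.0, 25.1 and 50.8% in ASH1L–/– and 33.2, 38.4 and 59.6% in WT cells. The whole segment from COL22A1 to the chromosome end was at 21.3, 27.2 and 51.9% in ASH1L–/– and 32.7, 37.7 and 58.2% in WT cells, and the rest of chromosome 8 at 8.34 to 13.1% in all groups. GML, COL22A1 and TRAPPC9 lay below this segment at 1 h and 3 h in both genotypes. In ASH1L–/– cells KCNK9 did so at both times and TSNARE1 at 3 h. XPC coverage of the promoters varied widely between libraries, for TRAPPC9 from 1.03 ± 1.34 to 3.00 ± 0.930 kb in ASH1L–/– and from 1.18 ± 1.44 to 3.27 ± 0.571 kb in WT cells, lowest without UV and highest at 3 h.

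Bases with an H3K4me3 peak in at least 2 libraries were then set against bases with an XPC peak in at least 2 libraries of the same group. In TRAPPC9, 15.9, 19.2 and 59.1% of the H3K4me3 bases lay in XPC peaks in ASH1L–/– cells at no UV, 1 h and 3 h, where XPC covered 14.2, 18.1 and 50.9% of the body. In WT cells the shares were 55.2, 50.1 and 78.5%, where XPC covered 39.7, 33.0 and 61.5%. For XPC the rule is looser in unirradiated WT cells, with 4 libraries, than in the other groups, with 3. The mean XPC share per library in WT cells was 31.8% without UV and 35.3% at 1 h, so the 2 times are not compared by this rule. The share of H3K4me3 bases was the higher of the pair in all 6 groups of TRAPPC9, 5 of GML, 3 of KCNK9, 3 of TSNARE1 and 2 of COL22A1. By genotype that was 6 of 15 comparisons in ASH1L–/– cells and 13 of 15 in WT cells, with no test of any difference. The 5 genes share their libraries, so these are not separate cases, and no count over all gene bodies was made. Some of the lower ASH1L–/– shares were near ties. In COL22A1 they were 11.78% of H3K4me3 bases against 11.95% of the body without UV, and 13.71% against 13.83% at 1 h. In GML at 3 h they were 38.58% against 38.67%. In TSNARE1 at 3 h the shares were 51.1% of H3K4me3 bases and 54.9% of the body in ASH1L–/– cells, and 77.0% and 69.6% in WT cells. The widest gap in the other direction was that of COL22A1 in unirradiated WT cells, with 19.2% of H3K4me3 bases against 39.8% of the body.

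Genes related to the members by function changed by a few kb at most in either genotype, apart from KCNK10. These changes are lengths in kb and were not set against body length, which was 75.0 to 728 kb in the members. Over all gene bodies 17.7% rose after UV in WT cells and 7.4% in ASH1L–/– cells, and among irradiated cells 15.7% were lower and 11.3% higher in ASH1L–/– than in WT cells. Of 7 tested TRAPP subunits, TRAPPC12 rose after UV in WT cells (0.67 ± 0.210 kb, adjusted p = 0.0421) and TRAPPC6B in ASH1L–/– cells (0.536 ± 0.104 kb, adjusted p = 0.0107), and none fell. Of 10 two-pore-domain potassium channels, 3 rose in WT cells, KCNK10 by 6.49 ± 1.27 kb, KCNK16 by 1.05 ± 0.250 kb and KCNK18 by 0.519 ± 0.164 kb. In ASH1L–/– cells none rose and KCNK12 fell by 2.17 ± 0.522 kb. Among irradiated cells 5 of these 10 channels were lower in ASH1L–/– than in WT cells and none was higher. Of the 7 TRAPP subunits 2 were higher and 1 was lower in that contrast.

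Of 9 FACIT collagens, 3 rose in WT cells, against 17.7% of all gene bodies, and none passed in ASH1L–/– cells. The 3 were COL20A1 (2.45 ± 0.422 kb), COL9A1 (0.74 ± 0.166 kb) and COL9A3 (0.33 ± 0.0764 kb). Among irradiated cells 4 of these collagens were lower in ASH1L–/– than in WT cells, against 15.7% of all gene bodies. COL20A1 was lower by the most (−3.50 ± 0.345 kb, adjusted p = 1.5e-05). Of 6 LY6 family genes, CD59, the inhibitor of the complement attack complex, rose in both genotypes, by 2.32 ± 0.461 kb in ASH1L–/– and 2.496 ± 0.461 kb in WT cells. After UV 2 of the 6 were higher in ASH1L–/– than in WT cells (11.3% of all gene bodies) and none was lower. Of 12 syntaxins 1 was lower in irradiated ASH1L–/– than in irradiated WT cells and none was higher. None of them passed for the UV change in either genotype. The largest UV change was that of STX8, at 1.83 ± 1.19 kb in ASH1L–/– (adjusted p = 0.333) and 2.78 ± 1.19 kb in WT cells (adjusted p = 0.112). The median change in WT cells was 0.0942 kb for the TRAPP subunits, 0.71 kb for the channels, 0.697 kb for the FACIT collagens, 0.158 kb for the LY6 genes and 0.384 kb for the syntaxins, against 0.434 kb over all gene bodies.

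The pattern of TRAPPC9 over the 18 libraries was shared by genes of other chromosomes. Among 10551 gene bodies the Pearson r with TRAPPC9 was 0.969 for KCNK9, 0.908 for TSNARE1, 0.785 for GML and 0.731 for COL22A1, against a median of 0.164. The 5 most alike outside the list were SHANK2 on chromosome 11 (r = 0.978), CACNA1C on chromosome 12 (0.971), CXCL12 on chromosome 10 (0.968), RAMP3 on chromosome 7 (0.956) and TERT on chromosome 5 (0.951). SHANK2, a postsynaptic scaffold gene, had 51.7, 34.2 and 27.3 kb in ASH1L–/– and 37.7, 93.4 and 142 kb in WT cells. TERT, the telomerase reverse transcriptase, had 2.21, 2.103 and 0.839 kb in ASH1L–/– and 2.27, 8.39 and 12.3 kb in WT cells. The points share libraries and pooled controls, so r is a description and has no p.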

How the data were processed

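Reads were trimmed with Trim Galore 0.6.5, aligned to hg38 with BWA 0.7.17-r1188 and filtered with bedtools 2.29.2, Picard and SAMtools 1.7 by the authors, and peaks were called per library with MACS2 2.2.7.1. The deposited peak lists give start and end positions (other), the fold enrichment (the ratio of pileup to control) and −log10 p and −log10 q of each peak, as the authors' caller wrote them. The deposited XPC lists also hold peaks weaker than the stated threshold.

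Covered length per gene body was computed from the 37 lists, without promoters of other genes, for 17393 windows. Group means were fitted with limma 3.58.1 (R 4.3.3) on kb, with trend, robust variances and Benjamini-Hochberg adjustment over all bodies covered in at least 3 libraries. Tables were made with Python 3.11.15, numpy 2.4.6, pandas 2.3.3 and scipy 1.17.1. Control mean and pileup were solved assuming a pseudocount of 1, with a tolerance of 0.002 in −log10 p. The fits and the solver were tested on simulated data.

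The members and gene lists were chosen with earlier results of these data known. From each related list, up to 3 genes with the largest change among those past the threshold were named, or the largest where none passed. Alternatives were stronger peaks, a log2 scale, scaling to equal coverage, no filter, a replicate block and leaving out libraries. Input and XPC–/– samples entered only as controls of the peak calls. The p-values set each difference against the spread between libraries within the groups, pooled over all groups. Libraries of a group share a pooled control, so differences between the controls are not part of that spread.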

Additional observations from a re-analysis of the deposited data

Results flagged for a closer look

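The UV change of H3K4me3 gene body coverage was lower in ASH1L–/– than in WT cells in all 5 listed genes. The genes had been chosen with these values known, so the values are a description and no test is drawn from them. The change in ASH1L–/– minus that in WT cells was −157 ± 24.28 kb in TRAPPC9, −56.0 ± 5.41 kb in KCNK9, −46.6 ± 8.53 kb in TSNARE1, −31.2 ± 5.25 kb in COL22A1 and −12.6 ± 2.495 kb in GML (SE). Of all gene bodies 3.71% were called in this contrast, most of them in the same direction (416 of 456). The control level at the shared regions of these genes also differed between the groups, and its part in the result was not tested.

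Among XPC peaks with a −log10 p of at least 2, unirradiated WT replicate 1 stood far above the other 3 libraries of its group, with 92.9 kb in TRAPPC9, 50.5 kb in COL22A1, 29.0 kb in TSNARE1 and 12.8 kb in KCNK9. The other 3 held at most 10.1, 2.54, 1.66 and 1.05 kb in those genes. This excess was not limited to the listed genes. At that strength the whole list of replicate 1 held 87199 peaks over 100.5 Mb. Those of the other 3 held 25631 to 36135 peaks over 8.90 to 14.5 Mb. For normally spread values the cut-off singles out at most about 1 in 20 groups of this kind by chance. Only a high library was looked for here, and the spread of these lengths was not checked for that shape. The 4 genes share the library, so they are not separate cases. With all XPC peaks and with promoters no library was singled out in this group, and groups of 3 were not examined.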

How the results depend on the processing

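Of the 480 H3K4me3 values of the 5 genes under an alternative setting, 450 kept their direction and side of the threshold, and of the 500 XPC values 465 did. With H3K4me3 peaks of at least 5-fold enrichment, there were 1008 calls for the WT change (2192 with all peaks), 2007 for ASH1L–/– minus WT (3313) and 201 for the difference of changes (456). Scaling every library to equal coverage gave 443 calls for the WT change and, for ASH1L–/– minus WT among irradiated cells, 2814 higher and 1439 lower, against 1387 higher and 1926 lower unscaled. Leaving out 1 library gave 489 to 3479 calls for the WT change, 231 to 1450 (1026 with all) for ASH1L–/– cells, 2771 to 3485 for ASH1L–/– minus WT and 187 to 770 for the difference of changes. The TSNARE1 change in ASH1L–/– cells, within its SE of 0, was 1.32 kb at a −log10 q of at least 1.3 and −2.47 to 0.62 kb with 1 library left out. Not every same-number pair of libraries deviated together (correlations of −0.739 to 0.910 for H3K4me3, median 0.342 against −0.182 for different numbers, 32 of 45 over 0.1, 10 of 18 libraries closest to their own number, and −0.613 to 0.725 for XPC), so the numbers were not taken as a pairing, and the replicate block gave 797 calls for the difference of changes. For the XPC change in WT cells (126 calls) there were 0 calls at a −log10 p of at least 2, 14 after scaling, 0 on the log2 scale, 39 without the 2 shorter lists and 42 to 196 with 1 library left out. For ASH1L–/– cells (1 call) the counts were 9 at a −log10 p of at least 2, 0 after scaling, on the log2 scale or without the shorter lists, 2 without the filter and 0 to 3 with 1 library left out. For ASH1L–/– minus WT (1211 calls) there was no call (0) at a −log10 p of at least 2 and 911 to 1391 with 1 library left out, and for the difference of changes 0 to 2. At a −log10 p of at least 2 the XPC change in WT cells was −10.9 kb in TRAPPC9, −1.52 kb in KCNK9, −5.95 kb in COL22A1, −2.93 kb in TSNARE1 and −1.22 kb in GML, and without unirradiated WT replicate 1 it was positive in all 5 (0.552 to 10.9 kb, chosen after seeing the data). In ASH1L–/– cells it was −2.56, −1.29, −2.27, −0.807 and −1.13 kb in the same genes, with 956 to 26584 such peaks in the 1 h lists. After scaling, the XPC difference of changes was −29.3, −5.83, −0.200, −18.8 and −0.0982 kb in that order. With 1 library left out it ran from −21.6 to 53.3 kb in TRAPPC9, −3.96 to 8.73 kb in KCNK9, −14.6 to 16.6 kb in TSNARE1 and −0.123 to 4.63 kb in GML. Within 1 kb of the start site the mean promoter H3K4me3 of all lists was 0.0806 kb in KCNK9 (0.885 kb within 2 kb) and 1.64 kb in TRAPPC9 (1.92 kb). Counting steps with at least 500 bases gave 6 for COL22A1 in ASH1L–/– cells at 3 h and 9 in WT cells at 1 h. The control level taken as a mean over peaks was 1.11 in COL22A1, 1.28 in GML, 1.63 in TRAPPC9 and 2.18 in TSNARE1, against medians of 1.38, 1.51, 2.04 and 2.76. Over regions with a peak in all libraries it was 1.62 in TRAPPC9 and 2.103 in TSNARE1, and over regions with a peak in at least 2 libraries of each group 2.18 in TSNARE1 (both chosen after seeing the data). The cause of these shifts was not tested. The peak lists hold no read counts, and the effect of depth on covered length was not tested.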
